A study of Mus musculus with 16 samples.

Results

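The nucleus pulposus (NP) was compared with the annulus fibrosus (AF) in the intervertebral discs of aged mice that still carried Sirt6. The comparison used the 8 arrays labelled Sirt6 fl/fl, 4 of NP tissue and 4 of AF tissue, out of 16 arrays in the series. The mice were homozygous for the floxed Sirt6 allele (Sirt6 fl/fl), male, on a C57BL/6Jx129SxFVB/NJ background and 24 months old, and by the methods they had received tamoxifen as young adults, as the conditional knockout mice (cKO, floxed Sirt6 with AcanCreERT2) had. The other 8 arrays came from cKO mice of the same age, in which Cre acts in aggrecan-expressing cells, and served as arrays that the comparison had not used. Each array carried the pooled lumbar and caudal discs of 1 animal. Both tissues were taken from each of the 4 fl/fl mice, so the 8 arrays may come from 4 animals, and no label pairs them. The main fit counted each array as 1 replicate, so its p-values take no account of shared animals.

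The disc is a load-bearing joint between vertebrae. Its core, the NP, descends from the embryonic notochord and holds vacuolated cells in a gel of aggrecan, which draws in water, and these cells express cytokeratins such as those encoded by Krt8 and Krt19. The AF around it is built of lamellae of collagen fibres made by fibroblast-like cells that share regulators, Scx and Mkx among them, with tendon. With age both compartments lose cells and matrix order.

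Signals were measured on Mouse Clariom S arrays as log2 values per probe set. Before any gene was compared, the whole NP arrays lay below the whole AF arrays, with array medians of 4.46 to 4.48 in NP and 4.94 to 4.99 in AF. Every array was therefore set to its own median, and every level below is a log2 signal above or below the median of its array. Without that step the median difference over all genes was -0.52, so each change given here is relative to it. Whether NP and AF arrays were normalized in the same run was not given in the sources used here, and a run cannot be told apart from the tissue. The median of 23 background control probe sets stood at -0.18 to -0.14 in NP and at -0.26 to -0.11 in AF. A gene was taken as over background on an array when it was at least 2-fold above that median, which was reached by 15.8% to 17.4% of named probe sets in NP and by 17.4% to 21.7% in AF. The 4 NP arrays resembled each other more closely across genes (correlations 0.695 to 0.726) than the 4 AF arrays did (0.550 to 0.641), and AF array 1 stood apart from the other AF arrays on the second principal component. Of 13086 genes tested, 4074 were over background on 0 of the 8 arrays. In whole tissue, fewer cells of a type and less RNA per cell cannot be told apart.

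NP arrays had the higher signal for Fxyd6, a regulator of the sodium-potassium ATPase, for the G protein subunit genes Gng12 and Gnai2, for the sialomucin gene Cd164 and for the small heat shock protein gene Hspb1. AF arrays had the higher signal for Col3a1, the gene of collagen type III, for the ubiquitin ligase gene Wwp2 and for the metabolic gene Acat1. The classic markers of either tissue were not among the genes called. limma called 60 of 13086 genes at a Benjamini-Hochberg adjusted p under 0.05 (0.459%). The groups did not overlap for any of the 60, where they did not for 11.2% of all genes tested. The 60 were chosen by p on the same arrays, so this lack of overlap adds no support. Of the 60, 39 were higher in NP (0.298%) and 21 were higher in AF (0.16%), so that 65% of the calls lay on the NP side. This split depended on the fit and the scaling, at 48% of 196 calls in 1 fit over all 16 arrays, 54.8% of 42 calls when arrays were centred on the background controls and 2.92% of 1782 calls when they were not centred. The lowest adjusted p was 0.0111. A version of Significance Analysis of Microarrays (SAM) rewritten here called 0 genes at a q under 0.05 (lowest q = 0.0566). The authors name SAM with a p threshold of 0.05, so this is not their test. The rewritten version added 2.574 to each gene's standard error, and its 35 null splits held the true split. That constant was larger than any limma standard error given here, so the SAM statistic followed the size of a difference more than its spread. With the replicate number as a block limma called 10 genes, though no label says that the number marks the animal. In the main fit the count at an unadjusted p under 0.05 was 2282 (17.4%), with 1080 higher in NP (8.25%) and 1202 higher in AF (9.19%). With that p and the minimum fold change that the methods set for genotypes it was 1851 (14.1%), of which 874 were higher in NP (6.68%) and 977 in AF (7.47%). Control probe sets placed in introns passed at rates of the same size. Of 3766 intron control probe sets that met the same filter, 574 (15.24%) had an unadjusted p under 0.05 and 22 (0.5842%) reached the p of the called genes, 14 of them higher in NP and 8 higher in AF. Among 945 exon control probe sets 7 (0.7407%) did so, and among 14 background control probe sets 0. The share of genes called was thus not above that of the intron and exon control probe sets, and what moved those probe sets was not tested. The number of calls also rested on single arrays. It was 1 to 4 when an NP array was left out and 8 to 22 when an AF array was left out, and Fxyd6 was the gene that remained called in 8 of 8 such fits. Gng12 remained called in 7 of them, Acat1 in 3, Cd164, Gnai2, Hspb1 and Wwp2 in 1 each, and Col3a1 in 0.

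**Figure D1:**
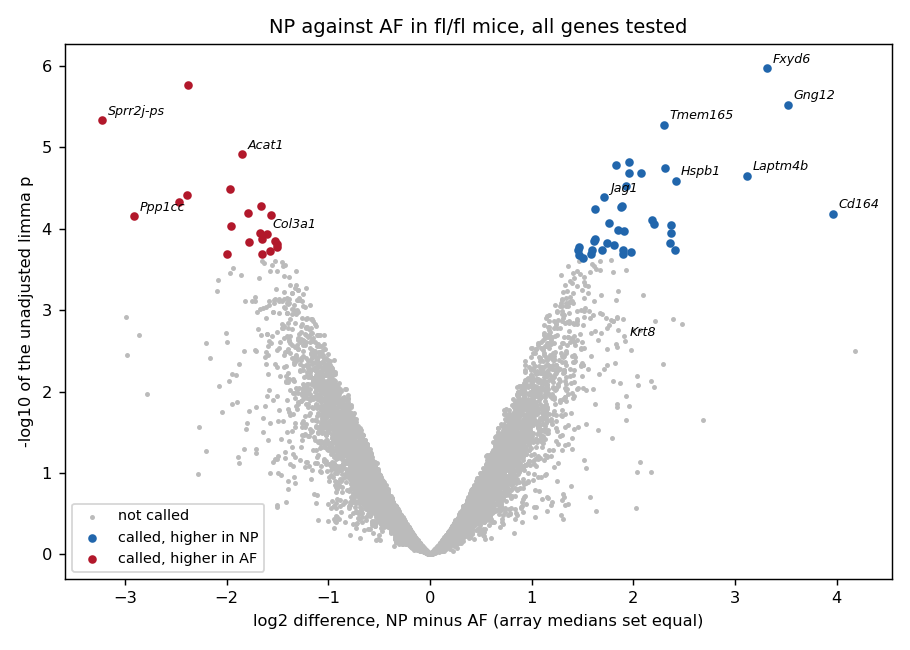
Each point is 1 of the 13086 genes tested, with the log2 difference of NP minus AF on the x axis and the -log10 of the unadjusted limma p on the y axis, over 4 NP and 4 AF arrays of fl/fl mice. The 39 genes called higher in NP (blue) and the 21 called higher in AF (red) lie at the upper edges, and Krt8, labelled in grey, is not called.

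Fxyd6 had the lowest p of all genes tested. Its level was 2.94, 2.96, 2.22 and 4.03 on the NP arrays and 0.06, 0.05, -0.49 and -0.74 on the AF arrays. All NP arrays were thus well above all AF arrays, and no AF array was over background. The signal was at least 4.71-fold higher in NP (adjusted p = 0.0111 by limma). Here and below, "at least" sets the mean of the brighter tissue against the background limit of the dimmer one, for genes that were over background on 0 arrays of the dimmer tissue. It takes no account of the spread between arrays of the brighter tissue. Where the dimmer tissue was over background on some arrays, and for genes that were not called, the measured log2 difference is given, and near background it is no estimate of the full change.

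Subunits of heterotrimeric G proteins, which relay signals from cell surface receptors, were among the genes higher in NP. The gamma subunit gene Gng12 read 3.26, 3.48, 4.46 and 5.30 in NP and -0.04, 0.41, 1.27 and 0.79 in AF. The measured log2 difference was 3.52 ± 0.46 (SE, adjusted p = 0.013), with 1 of 4 AF arrays over background, so the AF level lay near background. The inhibitory alpha subunit gene Gnai2 read 2.13, 2.60, 2.61 and 2.38 in NP, closely grouped, and -0.14, 1.31, -1.02 and 0.09 in AF, where the arrays were spread. Its log2 difference was 2.37 ± 0.43 (adjusted p = 0.0392). Gnai1, a second inhibitory alpha subunit gene, was at least 2.33-fold higher in NP (adjusted p = 0.0337).

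Cd164 encodes a sialomucin of endosomes and the cell surface. Its NP levels were 1.97, 5.62, 5.99 and 4.08 and its AF levels 0.24, 0.06, 1.13 and 0.38. The groups were separate, but NP array 1 lay far below the other NP arrays, and 1 of 4 AF arrays was over background (measured log2 difference 3.96 ± 0.69, SE, adjusted p = 0.035). Laptm4b, a lysosomal membrane protein gene, read 2.92, 2.49, 4.45 and 2.5 in NP and 1.11, -0.58, -0.19 and -0.43 in AF, a difference of 3.12 ± 0.49 (adjusted p = 0.0243).

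Genes of the secretory pathway were also present among the genes higher in NP. Tmem165, a Golgi membrane protein needed for manganese supply and glycosylation, read 1.76, 1.92, 2.30 and 1.76 in NP and -0.70, 0.18, -0.67 and -0.26 in AF. NP arrays lay close together and none of the AF arrays was over background, so the signal was at least 2.2-fold higher in NP (adjusted p = 0.0138). Ergic2, a protein of the compartment between the endoplasmic reticulum and the Golgi, differed by 2.41 ± 0.47 (adjusted p = 0.0462) and was over background on 3 of 4 AF arrays. Sacm1l, a phosphoinositide phosphatase of these membranes, was at least 1.78-fold higher (adjusted p = 0.0383). Slc35a1, the Golgi transporter of CMP-sialic acid, was over background on 3 of 4 NP arrays and at least 1.31-fold higher (adjusted p = 0.0337). The Golgi SNARE gene Gosr1 was at least 1.42-fold higher (adjusted p = 0.0463). These genes were put side by side after their values were seen and were no list of their own.

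Hspb1, which encodes a small heat shock protein, was the single member of the chaperone list to be called. It read 1.05, 1.92, 1.21 and 2.11 in NP and -1.34, -1.31, -0.01 and -0.70 in AF. Every NP array was over background and no AF array was, and the signal was at least 1.71-fold higher in NP (adjusted p = 0.026). Pmp22, a peripheral myelin protein also made outside nerve, read 2.04, 0.48, 0.44 and 2.20 in NP and -1.63, -0.59, -1.26 and -0.80 in AF, so that 2 of 4 NP arrays were over background (at least 1.41-fold, adjusted p = 0.046). It was the single called member of the nerve and Schwann cell list. That list's mean level lay between 0.278 and 0.492 in NP and between 0.0392 and 0.511 in AF, and 3 of its 11 tested members were over background on 0 of 8 arrays. Sox10, a transcription factor gene of Schwann cells, was over background on 0 NP and 2 AF arrays. The part of nerve in the Pmp22 result was not tested.

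Ligands and receptors at the cell surface came next. Ccn1, a matricellular protein that binds integrins, read 2.13, 1.52, 2.46 and 2.25 in NP and 0.08, -0.42, -0.34 and 1.14 in AF, a difference of 1.97 ± 0.39 (adjusted p = 0.0463). Jag1, a Notch ligand, read 2.05, 1.60, 1.90 and 1.81 in NP and 0.07, 0.45, 0.05 and -0.07 in AF. Both groups were narrow and none of the AF arrays was over background, and the signal was at least 2.06-fold higher in NP (adjusted p = 0.0317). Tnfrsf12a, the receptor of the cytokine TWEAK, was at least 2.08-fold higher (adjusted p = 0.0279). Cd40, a receptor of the same superfamily known from antigen-presenting cells, differed by 1.90 ± 0.37 (adjusted p = 0.0462). Beside it, the list of macrophage and other leukocyte genes had a mean between 0.151 and 0.488 in NP and between 0.210 and 0.415 in AF. Of its 14 tested members 0 were called, against 0.459% of all genes, and 5 were over background on 0 of 8 arrays. The part of leukocytes in the Cd40 result was not tested.

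Mcl1, a member of the BCL2 family that holds back apoptosis, read 0.87, 1.35, 0.65 and 1.45 in NP and -0.70, -1.12, -0.86 and -0.81 in AF. It was over background on 3 of 4 NP arrays and at least 1.22-fold higher in NP (adjusted p = 0.0243). Mcl1, and likewise Pmp22, Cwf19l2 and Slc38a1, passed the filter on low signal through the NP arrays alone, so these genes entered the test because of the tissue in which they were high. The splicing factor gene Tra2b was at least 2.55-fold higher (adjusted p = 0.0416) and Cwf19l2, related to a yeast spliceosome protein, at least 1.77-fold higher (adjusted p = 0.0243). The phosphatase gene Acp1 was at least 2.18-fold higher (adjusted p = 0.0392), and Abhd13, which encodes a hydrolase-like membrane protein, differed by 2.07 ± 0.32 (adjusted p = 0.0243). Klc1, a light chain of the motor kinesin, was at least 1.83-fold higher (adjusted p = 0.0243), and Slc38a1, a glutamine transporter, at least 1.23-fold higher (adjusted p = 0.0392). Slc38a1 was over background on 2 of 4 NP arrays. The ciliary gene Cfap44 was over background on all 8 arrays, at 7.67 ± 0.31 in NP and 5.76 ± 0.59 in AF (SD, n = 4 each), a difference of 1.91 ± 0.35 (SE, adjusted p = 0.0416). Of the 39 genes, 26 were over background on all 4 NP arrays and 4 (H2-M11, Nmt1, Scaf4 and Zfp937) on none, so that no fold is given for those 4. Golt1b has no fold either, since its NP mean of 0.80 did not exceed the background limit of the AF arrays.

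**Figure D2:**
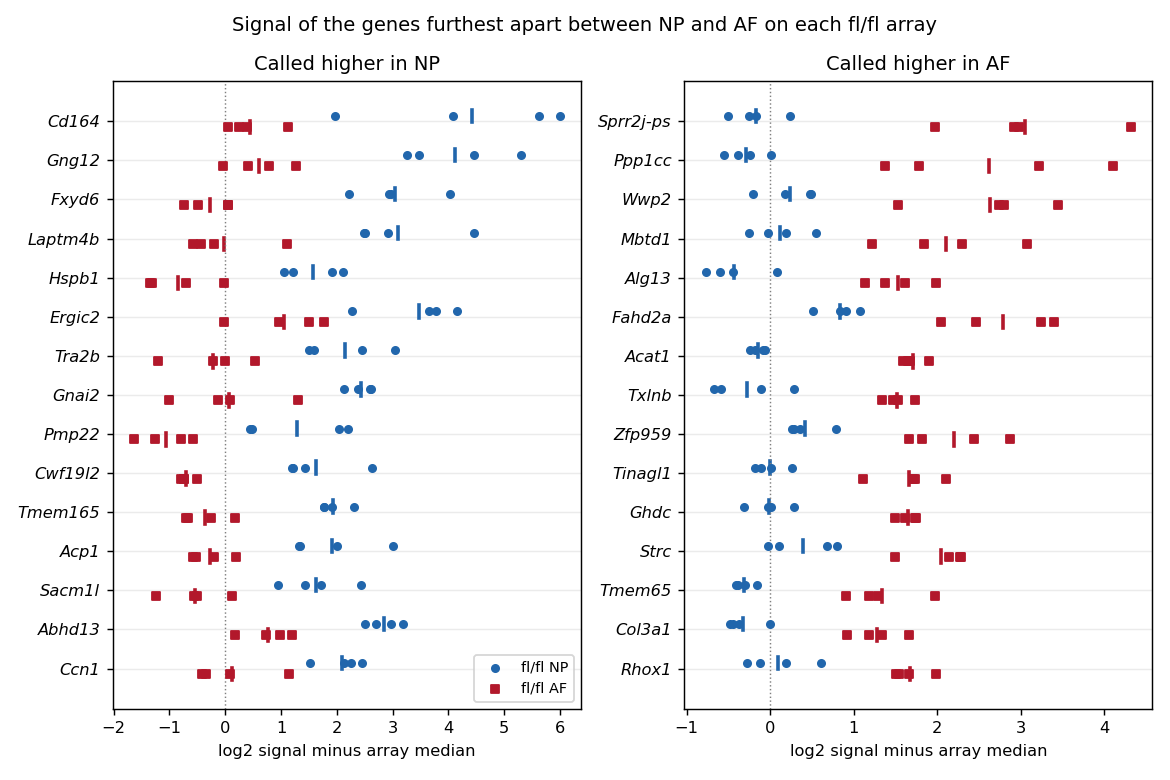
Levels of the called genes with the largest measured differences, 15 in each direction, as log2 signal minus the array median on the x axis, with 4 fl/fl NP arrays as blue circles, 4 fl/fl AF arrays as red squares and group means as bars. No gene has overlapping groups, and many of the dimmer groups lie near 0, close to the background controls.

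Among the 21 genes higher in AF, 19 were over background on all 4 AF arrays and 19 on 0 of the 4 NP arrays. Col3a1, the gene of the fibrillar collagen type III, was the single member of the list of AF and tendon-lineage genes to be called. It read 1.66, 0.92, 1.18 and 1.33 in AF and -0.48, -0.01, -0.45 and -0.37 in NP. All AF arrays were over background and none of the NP arrays was, and the signal was at least 1.35-fold higher in AF (adjusted p = 0.0416). Col3a1 was called in 0 of 8 fits with 1 array left out, so its call needed every array. Tinagl1, a secreted matrix glycoprotein, read 1.10, 1.71, 1.74 and 2.10 in AF and 0.00, -0.11, -0.18 and 0.26 in NP, at least 1.77-fold higher in AF (adjusted p = 0.0416).

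The ubiquitin ligase gene Wwp2, whose locus hosts the cartilage microRNA miR-140, read 2.80, 2.74, 1.53 and 3.44 in AF and 0.18, 0.48, -0.20 and 0.48 in NP. It was at least 3.45-fold higher in AF (adjusted p = 0.0312). Ppp1cc, a catalytic subunit of protein phosphatase 1, read 3.21, 4.11, 1.78 and 1.37 in AF, a wide spread, and -0.25, 0.01, -0.55 and -0.38 in NP (at least 3.43-fold, adjusted p = 0.035). The separation was clear in both, although AF arrays differed among themselves by more than the NP arrays did.

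Other genes higher in AF act in metabolism and at membranes. Acat1, the acetoacetyl-CoA thiolase of ketone body metabolism, read 1.65, 1.59, 1.90 and 1.67 in AF and -0.09, -0.06, -0.18 and -0.24 in NP. Both groups were narrow, and the signal was at least 1.82-fold higher in AF (adjusted p = 0.0243). Tmem65, a protein of the inner mitochondrial membrane, was at least 1.41-fold higher (adjusted p = 0.046). Pctp, which carries phosphatidylcholine between membranes, was at least 1.9-fold higher (adjusted p = 0.0461), and Fahd2a differed by -1.95 ± 0.35 (NP minus AF, adjusted p = 0.0393). Alg13, a sugar transferase subunit of N-glycosylation, was at least 1.61-fold higher (adjusted p = 0.0286). Tbc1d14, a regulator of recycling endosomes and autophagy, was over background on all 8 arrays and read 2.83, 2.64, 2.59 and 2.69 in AF and 1.05, 1.09, 1.33 and 1.02 in NP, a difference of -1.56 ± 0.27 (adjusted p = 0.035).

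Txlnb, a muscle-enriched taxilin, was at least 1.6-fold higher in AF (adjusted p = 0.035). The mean of the skeletal muscle list lay between 0.143 and 0.388 in NP and between 0.143 and 0.459 in AF. Of its 27 tested members 0 were called, against 0.459% of all genes, and 9 were over background on 0 of 8 arrays. Of the defining muscle markers Acta1, Myh4, Myh1 and Mylpf were over background on no array, Ckm on 1 AF array and Tnnt3 on 3 NP and 2 AF arrays, and the part of muscle in the Txlnb result was not tested. Sprr2j-ps, annotated as a pseudogene of the small proline-rich family of the epidermis, read 1.97, 4.32, 2.92 and 2.98 in AF and -0.25, -0.51, 0.24 and -0.17 in NP (at least 4.62-fold, adjusted p = 0.0138). Members of this family resemble each other in sequence, so the source of the signal is uncertain. The same holds for the zinc finger gene Zfp959 (at least 2.56-fold, adjusted p = 0.046), the homeobox gene Rhox1 (at least 1.78-fold, adjusted p = 0.0463) and other members of large families among the calls. The epidermis list had a mean between 0.493 and 0.617 in NP and between 0.277 and 0.725 in AF. The remaining genes named on the AF side were Mbtd1, a chromatin-binding protein gene (at least 2.41-fold, adjusted p = 0.0463), Strc, the inner ear gene of stereocilin (at least 2.31-fold, adjusted p = 0.0463), and Ghdc (1.64 ± 0.11 in AF and -0.01 ± 0.24 in NP, SD, n = 4 each, adjusted p = 0.0337).

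Of the 18 markers tested of NP, cartilage and AF, 0 were called, against 0.459% of all genes tested. At that share, 0 calls among so few genes are no check of the tissue labels. Krt8, a cytokeratin of notochord-derived NP cells, read 4.49, 3.00, 3.80 and 5.66 in NP and 2.54, 3.11, 1.67 and 1.98 in AF. The lowest NP array and the highest AF array overlapped, and Krt8 was over background on all 8 arrays (difference 1.91 ± 0.51, adjusted p = 0.0932). Krt19, its partner, read 1.92, 1.66, 1.05 and 2.34 in NP and 1.35, -1.09, -0.93 and 0.26 in AF, with AF array 1 inside the NP range (1.84 ± 0.50, adjusted p = 0.0975). For the other NP markers tested, none of them called, the difference was 0.26 for Krt18, 0.44 for Shh, 0.13 for Cd24a and 0.46 for Car3, and it was -1.05 for Cdh2. Foxa1 fell below the filter and T had no value here.

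Cartilage genes were measured in both tissues. Acan, the gene of aggrecan, was over background on all 8 arrays, at 2.22 ± 0.79 in NP and 1.74 ± 0.22 in AF (SD, n = 4 each). Its difference of 0.48 ± 0.38 (SE) was not larger than the spread between arrays (adjusted p = 0.564). Col2a1 differed by -0.04, Sox9 by -0.84 and Comp by 0.17, with adjusted p of 0.973, 0.328 and 0.85. No AF marker was called. Scx and Thbs4 were over background on 0 of 8 arrays, with positive differences of 0.01 and 0.88 (adjusted p = 0.995 and 0.187). Col1a1 was 1.31 ± 0.48 in NP and 1.24 ± 0.51 in AF, Col1a2 differed by -0.25, Mkx by -0.21 and Fmod by -0.76, while Tnmd, too, had a positive difference, of 1.03 (adjusted p = 0.19). The sign for Col2a1 turned under quantile normalization. Sirt6 fell below the filter on these arrays.

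**Figure D3:**
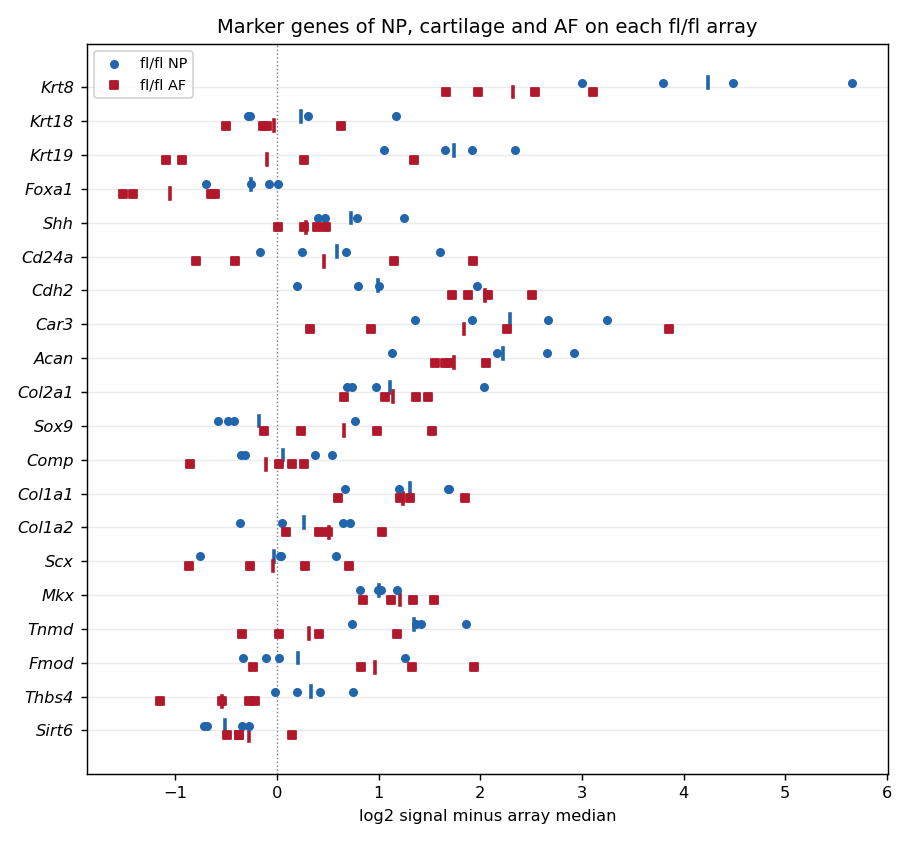
Levels of 20 marker genes, as log2 signal minus the array median on the x axis, with 4 fl/fl NP arrays as blue circles, 4 fl/fl AF arrays as red squares and group means as bars. Krt8 and Krt19 lie higher in NP with overlapping arrays, and Col1a1 and Col2a1 have nearly equal means.

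Lists of genes that fit the disc and its neighbours were then counted, beside a median difference of -0.02 over all genes tested. Without centring all of these medians move down by the shift of the arrays given above, so their signs hold only relative to the array medians. Of 478 members tested in 28 lists 3 were called (0.628%, against 0.459% of all genes), Hspb1, Pmp22 and Col3a1. At these shares a list of this size can hold 0 called genes, so a count of 0 is read no further. The 19 tested NP and notochord markers had a median of 0.26 with 12 positive and 7 negative differences. The 22 tested AF and tendon-lineage genes had a median of -0.23 with 9 positive and 13 negative differences. The 26 tested cartilage matrix genes had a median of -0.09, and 5 of them had an unadjusted p under 0.05 toward AF against 1 toward NP, where the shares of all genes were 9.19% and 8.25%. Among them Ucma, which encodes a secreted protein of cartilage, was 0.83 ± 0.45 in NP and 2.12 ± 0.85 in AF (SD, n = 4 each, adjusted p = 0.146), and the differences were -0.97 for Col9a1 and -0.98 for Col9a2, chains of collagen IX, and -1.94 for Cytl1, a cytokine-like protein gene. Cytl1 read 1.42, 4.90, 3.96 and 1.24 on the AF arrays, a wide spread. Sox6 leaned the other way, toward NP, with a difference of 1.03 ± 0.36 (SE, adjusted p = 0.173).

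No gene of the energy metabolism lists was called, where 0.459% of all genes were. The 38 tested subunits of the respiratory chain and ATP synthase had a median of 0.22. Of them, 7 had an unadjusted p under 0.05 toward NP against 1 toward AF, where the shares of all genes were 8.25% and 9.19%. Ndufb11 of complex I differed by 1.62 ± 0.42 (adjusted p = 0.086) and Cox4i1 of complex IV by 1.87 ± 0.60 (adjusted p = 0.139), while Uqcrc2 of complex III differed by -0.88 ± 0.33. The 25 tested glycolysis and hypoxia genes had a median of 0.06 and 1 member at an unadjusted p under 0.05, Pfkm, a phosphofructokinase gene (-0.87). The 54 tested cytosolic ribosomal protein genes had a median of -0.08.

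In the list of heat shock proteins and endoplasmic reticulum chaperones, 11 of 20 tested members had positive and 9 negative differences, with a median of 0.15, and Hspb1 was the member called. The lectin chaperone gene Canx read 2.37 ± 1.12 in NP and 0.40 ± 0.86 in AF (adjusted p = 0.101), and the difference was 1.28 for Hspa5, the gene of BiP, and -0.38 for Serpinh1, the collagen chaperone gene (adjusted p = 0.195 and 0.559).

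Among signalling genes the Wnt list had a median of -0.22 over 26 tested members. Wnt5a, a ligand of non-canonical signalling, was 3.22 ± 0.06 in NP and 2.19 ± 0.43 in AF and over background on all 8 arrays (difference 1.03 ± 0.30, adjusted p = 0.118). In the TGF-beta and BMP list, with a median of -0.06 over 26 tested members, 0 were called, and the ligand gene Tgfb1 was over background on 0 of 8 arrays. Of the 10 tested hedgehog genes, 0 were called and 4 were over background on 0 of 8 arrays, and the list's median was 0.02. Hoxa4, a patterning gene, read 0.11 ± 0.51 in NP and 1.51 ± 0.34 in AF (adjusted p = 0.0731), and the 14 tested Hox genes had a median of -0.10.

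In the list of osmolyte, water and ion transport, none of the 8 tested members was over background on 4 of 8 arrays, and Slc12a2, the sodium-potassium-chloride cotransporter gene, was over background on 0 of 8. Of 4 tested sirtuins, the cytosolic Sirt2 differed by 1.02 and the mitochondrial Sirt3 by 1.17 (adjusted p = 0.147 and 0.194), while Sirt1 and Sirt5 differed by -0.61 and -0.08 (adjusted p = 0.754 and 0.936), and the list's median of 0.47 lay between these pairs. Sirt1 read 0.37, -0.08, -0.19 and 1.22 in NP and -0.38, -0.60, 0.43 and 4.31 in AF. Its negative difference thus rested on AF array 4. The senescence and cytokine list had a median of -0.05 over 22 tested members with 1 member at an unadjusted p under 0.05 in each direction (8.25% of all genes toward NP and 9.19% toward AF), and the matrix proteases and inhibitors had a median of -0.17 over 21 tested members with 0 at an unadjusted p under 0.05. The medians of the small leucine-rich proteoglycans, glypicans and syndecans, annexins and S100 proteins, and actin cytoskeleton genes were 0.08, 0.06, 0.12 and 0.19.

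**Figure D4:**
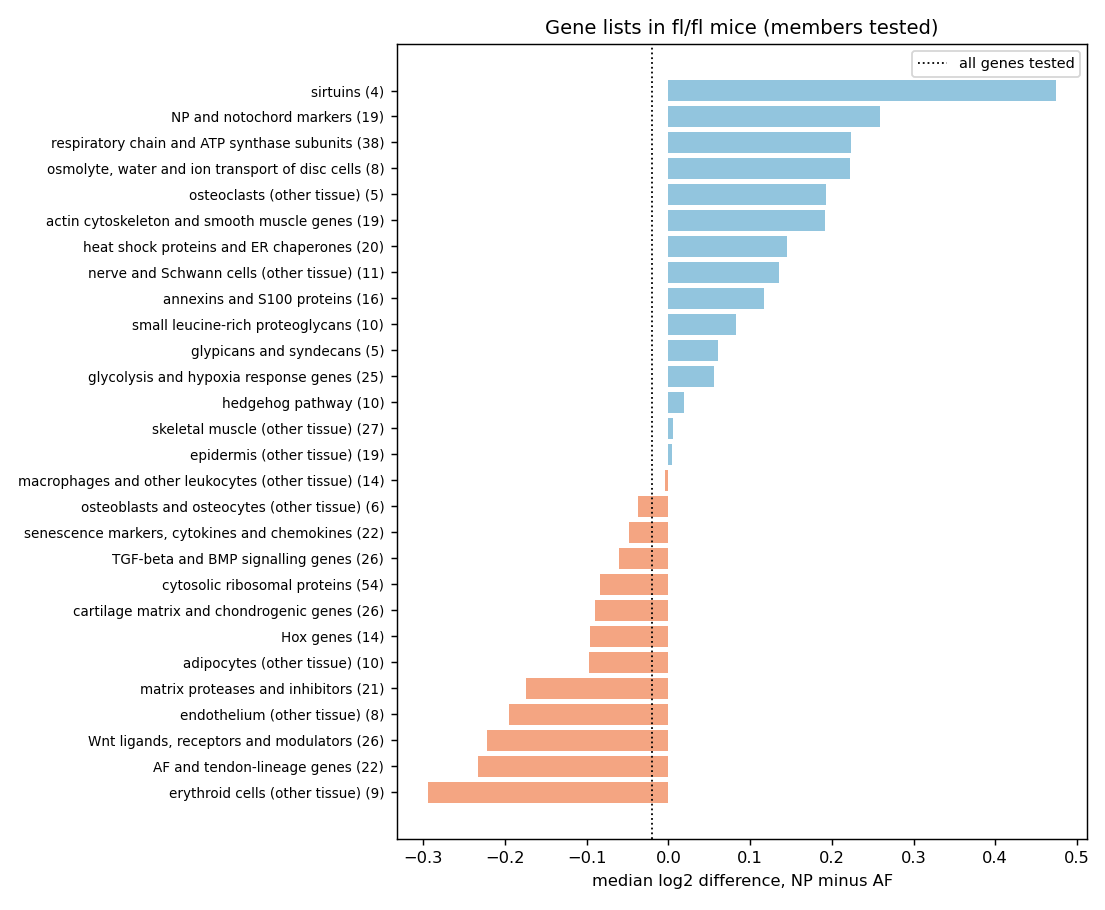
Median log2 difference of NP minus AF in fl/fl mice for the tested members of 28 gene lists, with the number of tested members in brackets and the median of all genes tested as a dotted line. The medians lie between -0.29 and 0.47, smaller in size than the difference of any called gene.

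Among the lists of other cells that the dissection could carry along, the nerve list alone held a called gene, Pmp22. The medians were -0.29 for erythroid cells, -0.20 for endothelium, -0.10 for adipocytes, -0.04 for osteoblasts and osteocytes, -0.00 for macrophages and other leukocytes, 0.00 for epidermis, 0.01 for skeletal muscle, 0.14 for nerve and Schwann cells and 0.19 for osteoclasts. The erythroid list had a mean between -0.06 and 0.25 in NP and between 0.14 and 0.40 in AF. Of the adipocyte markers, Adipoq, the gene of adiponectin, was over background on 0 of 8 arrays. Plin1 was over background on 3 NP and 0 AF arrays and Fabp4 on 0 NP and 2 AF arrays. In the bone list Ibsp was over background on 3 arrays of each tissue.

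The cKO arrays gave a measure of the same genes on arrays that had not been used to call them. Of the 60 genes, 56 (93.3%) had the same sign of the NP minus AF difference in cKO mice, against 68.7% of all genes tested. With an unadjusted p under 0.05 in cKO mice as well, the count was 44 (73.3%), 27 higher in NP and 17 higher in AF, against 16.6% of all genes. After adjustment 3 of the 60 were called in cKO mice, where 28 of 13086 genes were (0.214%). The repeat shares any run of NP and AF arrays with the first, so it does not tell tissue from run. Of the 22 intron control probe sets that reached the p of the called genes, 18 also had the same sign in cKO mice. Over all 3766 intron control probe sets that met the filter, 58.18% had the same sign.

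Fxyd6 was higher in NP again. It read 8.89, 2.54, 6.98 and 1.05 on the cKO NP arrays and -0.39, 0.85, -0.64 and 0.90 on the cKO AF arrays, a wide spread in NP without overlap. Laptm4b differed by 3.72 ± 0.86 and Ccn1 by 2.94 ± 0.45 in cKO mice, both with an unadjusted p under 0.05. Gnai2 differed by 2.37 in each genotype. On the AF side, Col3a1 read 1.27, 0.94, 1.05 and 1.16 on cKO AF arrays and -0.10, -0.09, 0.13 and -0.26 on cKO NP arrays, again without overlap, a difference of -1.19 ± 0.25. Tinagl1 differed by -1.63 ± 0.33 and Tbc1d14 by -1.56 ± 0.40.

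Other genes were not repeated at an unadjusted p under 0.05. Gng12 (2.05 ± 1.04), Cd164 (1.34 ± 0.72), Wwp2 (-0.74 ± 0.45) and Ppp1cc (-0.89 ± 0.50) kept their sign in cKO mice. Their unadjusted limma p there was 0.0741, 0.0878, 0.13 and 0.106. Tra2b and Acp1 had differences of -0.72 ± 0.51 and -0.13 ± 0.50 in cKO mice, opposite in sign to those in fl/fl mice, and Zfp937 and Gm14326 had the opposite sign too. Alg13 (-0.03 ± 0.33) and Calcoco1 (0.06 ± 0.35) were close to 0 in cKO mice. For 45 of the 60 genes the difference was smaller in cKO than in fl/fl mice, with medians of 1.25 and 1.88 along the fl/fl direction, from measured differences that include background-level groups. The genes had been chosen for their size on the fl/fl arrays and not on the cKO arrays. In 1 limma fit over 16 arrays, the test of the difference between genotypes called 0 of 13086 genes (0%, lowest adjusted p = 0.989). Without adjustment 547 genes (4.18%) had p under 0.05, and 13 of the 60 were among them. A differing tissue contrast between genotypes was therefore not detectable for any single gene with 4 arrays per group.

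**Figure D5:**
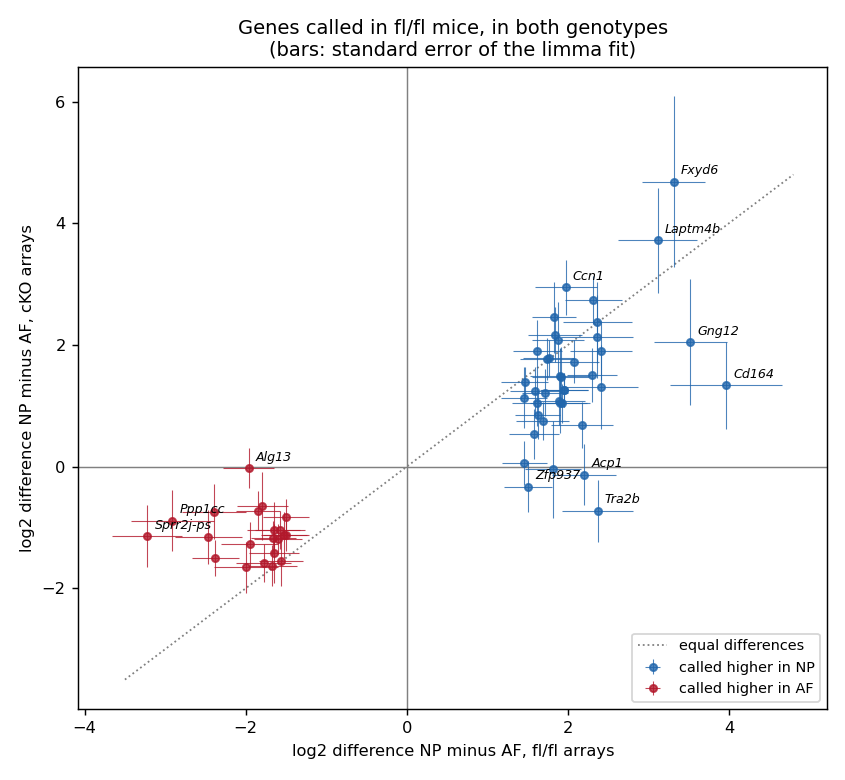
Log2 difference of NP minus AF for the 60 genes called in fl/fl mice, on the fl/fl arrays (x axis) and on the cKO arrays (y axis), with standard errors as bars and a dotted line where both are equal. Of the 60 genes 56 have the same sign in both genotypes, and Tra2b, Acp1 and Zfp937 lie across the zero line.

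Promoter sequences are given for 3 called genes that stand for the results above: Fxyd6, which remained called with any array left out, Hspb1, the called chaperone, and Col3a1, the called fibrillar collagen. Hspb1 remained called in 1 of 8 fits with an array left out and Col3a1 in 0. Each run covers 250 bases before and 50 bases after a transcript start (RefSeq, GRCm38.p6, 5′ to 3′ on the plus strand), with capitals at matches on either strand to 9 motifs.
Fxyd6 (chr9:45369935-45370234): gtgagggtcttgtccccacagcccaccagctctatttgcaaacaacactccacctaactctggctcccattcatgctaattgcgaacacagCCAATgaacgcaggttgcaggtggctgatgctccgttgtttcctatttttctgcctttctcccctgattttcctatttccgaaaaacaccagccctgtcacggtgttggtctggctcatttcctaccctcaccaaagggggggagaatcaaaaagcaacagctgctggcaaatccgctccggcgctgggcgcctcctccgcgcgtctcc
Hspb1 (chr5:135887669-135887968): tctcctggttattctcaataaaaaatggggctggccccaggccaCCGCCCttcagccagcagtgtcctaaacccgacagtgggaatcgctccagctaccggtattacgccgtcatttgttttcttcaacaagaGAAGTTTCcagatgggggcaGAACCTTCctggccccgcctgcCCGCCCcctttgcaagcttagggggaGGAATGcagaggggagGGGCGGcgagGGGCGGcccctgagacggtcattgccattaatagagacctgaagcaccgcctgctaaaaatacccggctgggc
Col3a1 (chr1:45311288-45311587): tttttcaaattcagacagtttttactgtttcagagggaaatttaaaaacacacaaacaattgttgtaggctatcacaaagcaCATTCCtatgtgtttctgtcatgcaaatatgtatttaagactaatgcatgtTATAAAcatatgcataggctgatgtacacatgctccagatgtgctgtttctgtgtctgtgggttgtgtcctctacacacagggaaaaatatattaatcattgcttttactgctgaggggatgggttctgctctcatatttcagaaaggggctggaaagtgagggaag
The TATA box was searched as TATAAA, the CCAAT box as CCAAT, the GC box as GGGCGG, the heat shock element as GAANNTTC, the AP-1 site as TGACTCA, the TEAD site as GGAATG, the T-box site as AGGTGTGA, the SOX site as ACAATGG and the FOX site as TGTTTAC, and none of the matches printed overlap. The Hspb1 run held 2 matches to the heat shock element, which 6.75% of the 13005 promoters of tested genes hold, 4 to the GC box and 1 to the TEAD letters. The Fxyd6 run held 1 CCAAT box match and the Col3a1 run 1 match each to the TATA box and the TEAD letters. RefSeq promoters were found for 34 of the 39 genes higher in NP (43 promoters) and for 17 of the 21 genes higher in AF (21 promoters). The GC box was present in 55.8% of the NP set and 52.4% of the AF set, against 48.1% for all tested genes, and the CCAAT box in 32.6% and 47.6%, against 38.3%. The heat shock element was present in 3 promoters of each set, the TATA box in 3 of each, the TEAD letters in 6 and 5, and AP-1 in 2 and 1. The T-box site was found in 0 of 43 and 1 of 21 promoters, the SOX letters in 1 and 0, and the FOX letters in 0 and 1. These matches describe letters in a window and are no evidence of binding.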

How the data were processed

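Total RNA of microdissected NP and AF was labelled with the GeneChip WT Plus kit and hybridised to Mouse Clariom S arrays. The methods set a lower minimum RNA integrity for these arrays than for the study's RNA sequencing. The part of RNA integrity in the differences between tissues was not tested. The authors summarised the arrays by SST-RMA in Expression Console (Transcriptome Analysis Console is credited to the submitters' processing notes). Deposited were log2 signals, 28846 probe sets with values of 2.56 to 19.9. A genome build was not named in the sources used here. Groups follow the labels, and each array counted as 1 replicate. The number of arrays limits the precision.

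Each array was centred on its median over all probe sets. Platform annotation gave 1 symbol to each of 19572 probe sets (19505 symbols, 55 with more than 1 probe set, of which the brightest was used). A gene was tested when its signal was above the 40th percentile on 4 or more of the 8 fl/fl arrays, in either tissue, so 14 called genes of 60 and 312 of all tested genes passed through 1 tissue alone. R 4.3.3 with limma 3.58.1 (lmFit, eBayes) gave p-values, adjusted by Benjamini-Hochberg over 13086 genes. The same fit was run on simulated data with independent noise for each gene and array. Those data held no effect shared by the genes of an array, so that run is no check of the calls. The cKO arrays were fitted alike, and the interaction came from 1 fit over 16 arrays. A fold given as "at least" uses, per array of the dimmer tissue, the higher of the gene's signal and 2 times the background median.

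Genes named were the 15 per direction with the largest fold change among those called, without predicted genes and olfactory receptors, all called list members or up to 6 per list, and fixed markers. Called genes named outside that rule (Jag1, Mcl1, Gnai1 and Cfap44 among them), the order of genes by role, the promoters shown and the comparison with intron and exon control probe sets were chosen after values were seen. The comparison, lists and tests were chosen with earlier results of these data known. Alternatives were other centring, quantile normalization, other filters, every probe set, array weights, trended and robust eBayes, Significance Analysis of Microarrays (SAM, which the authors name, rewritten in R), 1 fit over 16 arrays, the replicate number as a block, and leaving out each array. Plots were made in Python 3.11.15 (matplotlib 3.10.9).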

Additional observations from a re-analysis of the deposited data

Results flagged for a closer look

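In 156 groups of 4 arrays examined, 4 had 1 array far from the other 3, and chance alone marks about 1 in 20 groups. Cwf19l2 read 2.62 on fl/fl NP array 1, with 1.20 to 1.44 on the rest of the NP arrays. Gigyf1 read -0.47 on fl/fl AF array 2, against -0.17 to -0.13 on the other AF arrays. Slc38a1 read -0.33 on fl/fl AF array 1, against -0.79 to -0.78 on the others. Sox9, the chondrogenic transcription factor gene, read 0.77 on fl/fl NP array 2, with -0.58 to -0.43 on the rest.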

How the results depend on the processing

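No called gene changed sign under any alternative fit, but the number of calls depended on the fit. It was 1782 with no centring (2.92% of them higher in NP, against 65% of the 60 reported) and 196 in 1 fit over all 16 arrays (48% higher in NP). The rewritten SAM gave 0 at a q under 0.05 (lowest q 0.0566), where limma had 60 genes at an adjusted p under 0.05. Leaving out each array gave 1 to 22 calls, with 65% of the reported calls and 62.5% to 100% of these higher in NP. The share higher in NP was 54.8% with background centring (42 calls) and 54.9% among genes over background (82 calls). The count at the thresholds of the study was 3796 with no centring and 565 among genes over background, which tested 3059 genes, and 1759 to 2056 with 1 array left out. The cause was not tested.

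The replicate number as a block gave 10 calls, all among the 60. Deviations of same-numbered NP and AF arrays correlated at -0.066 to 0.068, and 0 of 4 numbers had their best partner in their own number, so the numbers were not taken to pair the arrays.

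Uncalled markers changed sign. With no centring the differences were -0.24 for Krt18, -0.061 for Shh, -0.37 for Cd24a, -0.043 for Car3, -0.024 for Acan, -0.33 for Comp, -0.43 for Col1a1 and -0.49 for Scx. Scx was -0.034 with background centring and -0.014 under quantile normalization, where Col2a1 was 0.072. Over the arrays left out the values spanned -0.049 to 1.13 for Car3, -0.29 to 0.61 for Cd24a, -0.14 to 0.28 for Col1a1, -0.35 to 0.10 for Col2a1, -0.082 to 0.30 for Comp, -0.052 to 0.48 for Krt18 and -0.27 to 0.25 for Scx.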
